A study of Nothobranchius furzeri with 8 samples.

Results

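The 100 most abundant transcripts of whole killifish brain are described here, out of 26739 genes in the table of *Nothobranchius furzeri*. RPM values (the counts of a gene divided by all counts of its library, scaled to the same sum in every fish) were averaged over 8 fish, and the 100 genes with the highest mean were taken, with the gene Nfu_g_1_008681 left out. The series compared the brains of males from the wild with those of captive males by RNAseq, with 4 fish in each group. The wild fish came from population A41 (strain label MZM_A41) and were 39 days old, counted from hatching. The captive fish were of the wild-derived strain MZM-0410 and were 35 days old in the labels, while the study's text gives a range around that age. The labels name no transgene or treatment, and the whole brain was used in every case. At the pond the wild brains went into RNAlater and were frozen later, while brains of captive fish were put on dry ice directly after dissection. Origin, strain, rearing, age and storage therefore differed together and cannot be told apart.

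The transcripts that dominate a brain library are mostly those of housekeeping systems and of the 2 large cell classes of the brain, neurons and glia. Ribosomal proteins and elongation factors are needed in every cell for making protein, and glycolytic enzymes and creatine kinase supply and buffer ATP. Neurons add the machinery of transmitter release, ion pumps and the motors that carry cargo along axons, and glia add myelin proteins, lipid carriers and calcium-binding proteins.

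Levels chose the members and are given as a description. The ranking used the mean over both groups, so that the difference between wild and captive fish did not choose the members directly, although a gene that was very high in a few fish could enter through them. At the edge of the ranking the last 2 members, Nfu_g_1_013746 and Nfu_g_1_000034, had mean levels of 749.5 and 749.1 RPM. The first genes outside were NSF with 748.4 RPM and RPL19 with 743.1 RPM, so the border is narrow. The gene that was left out, ATP5B (Nfu_g_1_008681), had 982.7 RPM and rank 64. Each library held 11814586 to 14541119 counts, and all 100 members had counts in every library. Of the members, 70 had a gene name in the study's tables and 30 are called by their identifier. Among the named members, 26 had their name only from the study's table of condition-dependent genes, a list chosen in part on these libraries.

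Between 86 and 90 members were among the 100 highest genes of each fish taken alone, and 68 members were so in all 8 fish. Each fish took part in the mean that chose the list, so some agreement was built in. By the mean of the wild fish 88 members would have been chosen, and by the mean of the captive fish 89. Ranked per transcript length, as RPKM (RPM per 1000 bases of transcript), only 43 of the members would have been kept. Long transcripts collect more reads, and DST (26901 bases) had 782 RPM but 29.1 RPKM. On the RPKM scale the highest members were EPDR1 (3849 RPKM), an MBP gene (Nfu_g_1_016795, 3755 RPKM), Nfu_g_1_019825 (3046 RPKM) and CKB (2351 RPKM).

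The members held a larger share of the reads in wild than in captive brains. The share was 15.8, 14.8, 15.03 and 14.8% of all counts in wild fish 3, 5, 7 and 11, the order kept for all wild fish below, and 14.4, 13.7, 13.3 and 13.2% in captive fish MZM_0410_124, MZM_0410_125, MZM_0410_126 and MZM_0410_127, likewise in the order used below. Means were 15.1% ± 0.488 (SD, n = 4) in wild and 13.7% ± 0.546 (SD, n = 4) in captive fish, a difference of 1.43 percentage points with no overlap between groups. The choice of members bears on this value. With the 100 genes of highest mean in captive fish the difference was 0.823 points and the groups overlapped, and with those of highest mean in wild fish it was 1.92 points. The 20 ribosomal protein genes alone held 2.40% ± 0.0821 of the counts in wild and 1.82% ± 0.0842 in captive fish. That is 0.581 points, or 40.8% of the net difference, in which rises and falls of members offset each other. Without these genes the members differed by 0.845 points with overlapping groups.

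**Figure D1:**
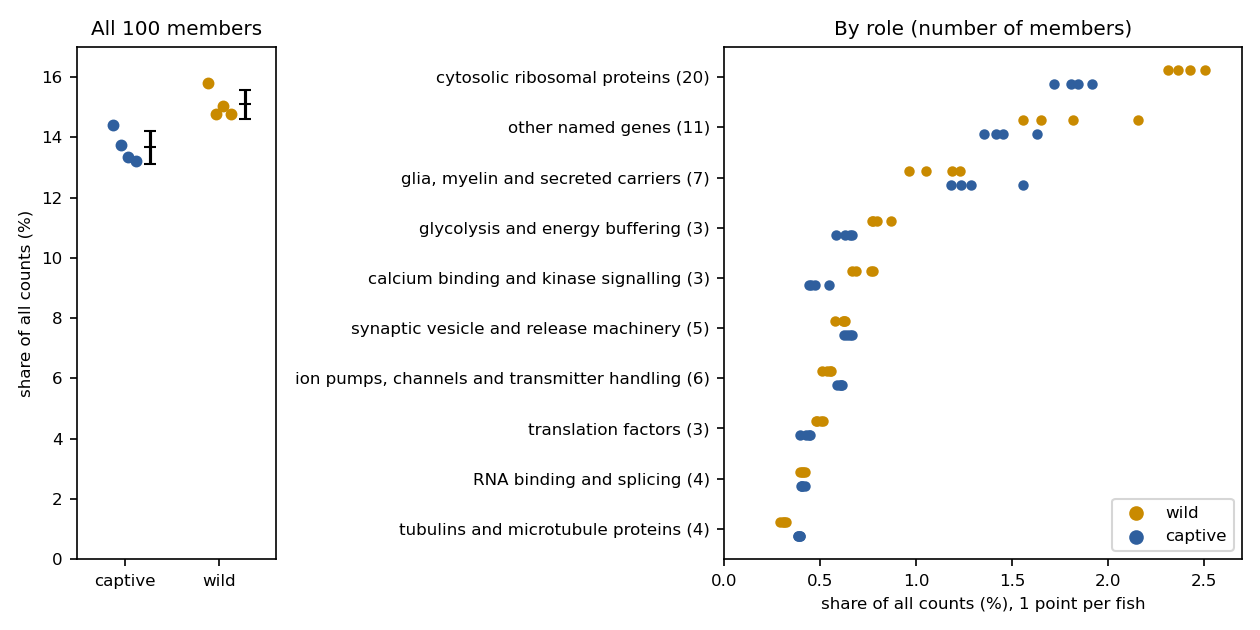
Share of all counts (%) held by the 100 members in each fish (left, bars show mean and SD, n = 4) and by role class (right, 1 point per fish, number of members in brackets; classes of 1 member and the 30 genes without a name are not drawn). Wild fish lie at 14.8 to 15.8% and captive fish at 13.2 to 14.4%, and the ribosomal protein genes are apart by 0.581 points in the mean.

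The ratio of the wild to the captive mean RPM was above 1 in 67 of the 100 members. Its median was 1.17, with quartiles of 0.955 and 1.32, and for 55 members it lay between 0.8 and 1.25. Over all 19517 genes tested the median ratio was 1.05, with 55.8% of genes above 1 and 50.7% between 0.8 and 1.25. Apart from GH1 the ratio ran from 0.537 in DST to 1.82 in FABP7. Fold changes below are log2 values of wild over captive fish, from counts scaled by TMM (a factor per library that sets the bulk of genes equal), with their standard error.

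By edgeR's quasi-likelihood test with Benjamini-Hochberg adjustment over all genes tested, 49 members were higher in wild fish, 16 were lower and 35 did not pass an adjusted p of 0.05. Over all genes tested 41.6% passed, with 19.8% higher and 21.8% lower, against 65% of the members. High counts make small differences easier to call, and among the 899 other genes down to rank 1000, 61.0% passed, with 28.5% higher and 32.5% lower. The share of members called was thus close to that of the next most abundant genes, while their balance leaned to the wild side. Without the ribosomal protein genes 30 of 80 members were higher and 16 lower. The median log2 fold change was 0.20 over the members, 0.08 over the members without ribosomal protein genes and 0.04 over all genes tested.

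The median absolute log2 fold change was 0.27, against 0.25 in the other genes down to rank 1000 and 0.31 over all genes tested. Against a 1.5-fold change edgeR's glmTreat test called 2 members (DYNC1H1 and DST, both lower in wild fish) at an adjusted p of 0.05. That is 2% of the members against 7.97% of all genes tested, and 45 of the 899 other genes down to rank 1000 were called. RPM values of the groups did not overlap in 62 members, 50 with wild fish above and 12 below. Over all genes tested 41% of genes did not overlap, 21.5% with wild fish above and 19.4% below. Of the 899 other genes down to rank 1000, 555 did not overlap, 288 with wild fish above and 267 below. In these measures the members thus differed from the other genes down to rank 1000 mainly in direction. They were also shorter, with a median transcript length of 2612.5 bases against 4571 bases. The part of length in the direction was not tested. The median coefficient of variation among fish of a group was 5.40% in wild and 5.55% in captive fish. It was 5.64 and 5.36% in the other genes down to rank 1000, and 12.1 and 11.01% over all genes tested. Nothing in the labels says that the fish of a group came from separate ponds or tanks, so p-values measure the spread between these fish.

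**Figure D2:**
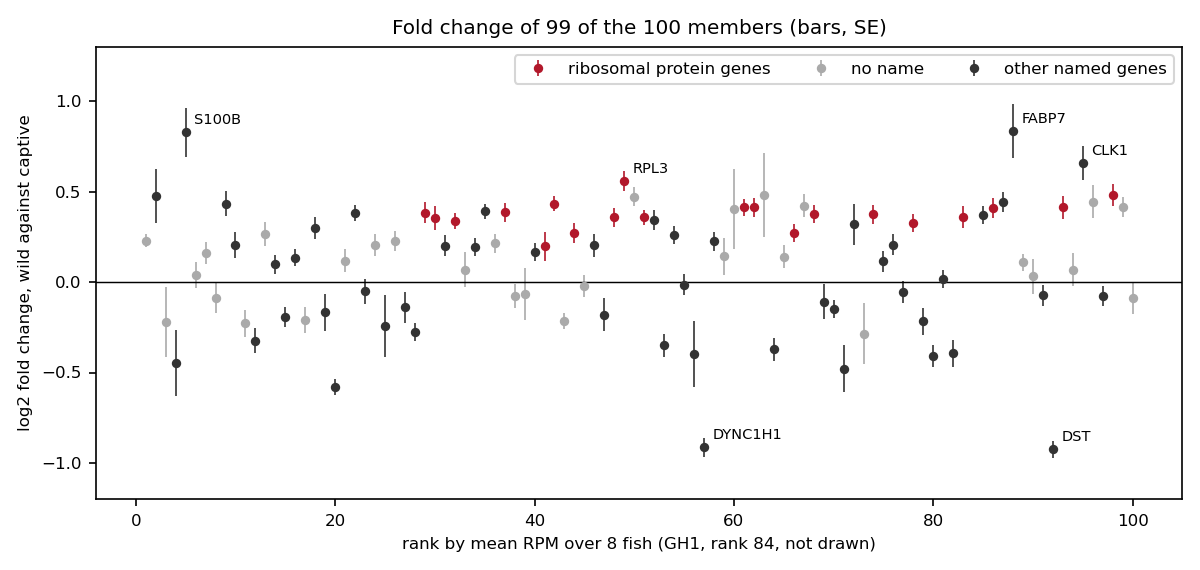
Log2 fold change of wild against captive fish (vertical, bars show SE) against the rank by mean RPM (horizontal) for 99 members, GH1 being left out for its SE of 2.11. The 20 ribosomal protein genes (red) lie between 0.20 and 0.56, and DST and DYNC1H1 are lowest at -0.93 and -0.91.

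Genes for the cytosolic ribosome formed the largest named group and were higher in wild fish almost throughout. Of the 20 members, 19 were higher and none lower, and the median log2 fold change was 0.37. The same class outside the members had 52 of 55 tested genes higher and none lower. Only genes with a name in the study's tables could enter a class. Of all named genes tested 65.9% were called, 32.5% higher and 33.4% lower, against 41.6% called over all genes tested. The class counts outside the members given below have the same limit. RPS6, a small subunit protein and the highest of these 20 members in RPM, had 1611, 1452, 1495 and 1602 RPM in wild and 1146, 1171, 1071 and 1241 RPM in captive fish. The groups did not overlap, and the log2 fold change was 0.38 ± 0.06 (edgeR adjusted p = 0.00065).

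RPL3, which lies near the catalytic centre of the large subunit, had the largest change of the group. Its RPM was 1407, 1328, 1349 and 1338 in wild and 862, 932, 839 and 973 in captive fish, so that every wild fish was well above every captive fish. The log2 fold change was 0.56 ± 0.06 (edgeR adjusted p = 3.9e-05). RPL5, which binds the 5S ribosomal RNA, was at 1366 to 1460 RPM in wild and 1019 to 1054 RPM in captive fish, with a log2 fold change of 0.43 ± 0.04 (edgeR adjusted p = 2.7e-05). RPS2 was the member not called, at 0.20 ± 0.08 (edgeR adjusted p = 0.079), and it passed without captive fish MZM_0410_127 (adjusted p = 0.026). Since 6 of these members took their name from the condition-dependent table alone, the other 14 were counted apart, and 13 of them were higher.

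Of the 3 translation factors 2 were higher and 1 did not pass. RACK1, a scaffold on the small subunit, had 1189 to 1287 RPM in wild and 893 to 1015 RPM in captive fish, a log2 fold change of 0.34 ± 0.05 (edgeR adjusted p = 0.00081). EEF1G, a subunit of elongation factor 1, was higher by 0.20 ± 0.06 (edgeR adjusted p = 0.027). PABPC1, the cytoplasmic poly(A)-binding protein, had 0.10 ± 0.05 and did not pass (edgeR adjusted p = 0.17). NACA2, named for the complex that meets the nascent peptide at the ribosome, was higher by 0.44 ± 0.06 (edgeR adjusted p = 0.00020).

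All 3 members of glycolysis and energy buffering were higher in wild fish, and their joint share was 0.804% of the counts against 0.633%. CKB, the brain creatine kinase, had 3132, 3043, 3332 and 2988 RPM in wild and 2220, 2502, 2347 and 1991 RPM in captive fish. The groups were clearly apart, with a log2 fold change of 0.43 ± 0.07 (edgeR adjusted p = 0.00098). ENO1, an enolase, rose by 0.30 ± 0.06 (edgeR adjusted p = 0.0041). GAPDHS, a glyceraldehyde-3-phosphate dehydrogenase, was at 0.20 ± 0.07 (edgeR adjusted p = 0.046). Outside the members 12 of 20 tested genes of this class were higher and 2 lower. SLC25A6, the carrier that exchanges ATP and ADP across the inner mitochondrial membrane, was higher by 0.13 ± 0.05 (edgeR adjusted p = 0.047), a call lost without any 1 of 7 libraries.

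The member with the highest RPM, Nfu_g_1_019825, has no name here. It had 8008, 7631, 7630 and 7447 RPM in wild and 6553, 6356, 6129 and 6628 RPM in captive fish, and took 0.768% of all counts in wild and 0.642% in captive fish. The groups did not overlap, and the log2 fold change was 0.23 ± 0.04 (edgeR adjusted p = 0.0011). EPDR1 followed, a relative of ependymin, the secreted glycoprotein first found in the brain fluid of goldfish. Its RPM was 8560, 7248, 6836 and 6068 in wild and 6177, 5208, 5155 and 3651 in captive fish. Here the highest captive fish lay above the lowest wild fish, and the log2 fold change was 0.48 ± 0.15 (edgeR adjusted p = 0.028). The call was lost without wild fish 3, wild fish 5 or captive fish MZM_0410_126, with an adjusted p of up to 0.072. Without EPDR1 the shares of the members still differed by 1.21 points and did not overlap.

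Transcripts of glia went in both directions. The members S100B and FABP7, from the marker list of radial glia and astrocytes, were higher in wild fish. S100B, a calcium-binding protein of glia, had 4637, 3551, 4258 and 3381 RPM in wild and 2701, 2196, 1791 and 2032 RPM in captive fish, with every wild fish above every captive fish. The log2 fold change was 0.83 ± 0.14 (edgeR adjusted p = 0.00098). FABP7, the brain fatty acid-binding protein that marks radial glia, had 1114, 902, 1258 and 846 RPM in wild and 638, 607, 431 and 585 RPM in captive fish. The groups were again apart, and the log2 fold change was 0.84 ± 0.15 (edgeR adjusted p = 0.0018), the largest of the called members.

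These 2 members do not stand for the whole marker list of radial glia and astrocytes. Of its 7 symbols 4 had a gene here, with 5 genes, of which 3 were higher and 1 lower. The higher genes were the 2 members and another FABP7 gene, Nfu_g_1_015220. GFAP overlapped between groups and did not pass (edgeR adjusted p = 0.135). The summed level was 5109 to 6933 RPM in wild and 3516 to 4781 RPM in captive fish. S100B was the largest part of this sum, with a mean of 3957 RPM in wild and 2180 RPM in captive fish, so the sum mainly follows that gene. The gene that was lower is SLC1A2, the main glutamate transporter of astrocytes and no member of the list, with a mean of 187 RPM in wild and 866 RPM in captive fish and a log2 fold change of -2.24 (edgeR adjusted p = 7.7e-07). In captive fish alone it would have ranked 74, and in wild fish 979. In RNA of a whole brain, fewer cells of a type and less RNA per cell cannot be told apart.

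Myelin basic protein, which binds the cytoplasmic faces of the myelin membrane together, was present as 2 members. Nfu_g_1_012286 had 870, 666, 815 and 708 RPM in wild and 1319, 911, 920 and 1023 RPM in captive fish, did not overlap and was lower by -0.48 ± 0.13 (edgeR adjusted p = 0.014). Nfu_g_1_016795 had 1621, 1215, 1587 and 959 RPM in wild and 1966, 1435, 1477 and 1366 RPM in captive fish, overlapped and did not pass (-0.24 ± 0.17, edgeR adjusted p = 0.28). Reads were placed at most once, and how alike the 2 sequences are was not examined. The split of reads between these genes is therefore uncertain. Over the oligodendrocyte marker list (7 symbols, 4 with genes, 7 genes) no gene was higher and 3 were lower, and the summed level was 4780 to 7613 RPM in wild and 7227 to 11110 RPM in captive fish.

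The class of glia, myelin and secreted carriers, with 7 members, also holds APOA1, a lipid carrier of plasma lipoproteins (-0.14 ± 0.09, edgeR adjusted p = 0.21), and NDRG4. NDRG4 came in by the form of its symbol and is known in mammals mainly from neurons. It was lower in wild fish, at 2345, 2234, 2045 and 2627 RPM against 2767, 2852, 2815 and 2919 RPM, without overlap (log2 fold change -0.32 ± 0.07, edgeR adjusted p = 0.0043). In all, 1 member of the class was higher, 2 were lower and 4 did not pass, at a median log2 fold change of -0.32. The tested genes of the class outside the members leaned the other way. Of these 52 genes 23 were higher and 12 lower, at a median of 0.25.

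**Figure D3:**
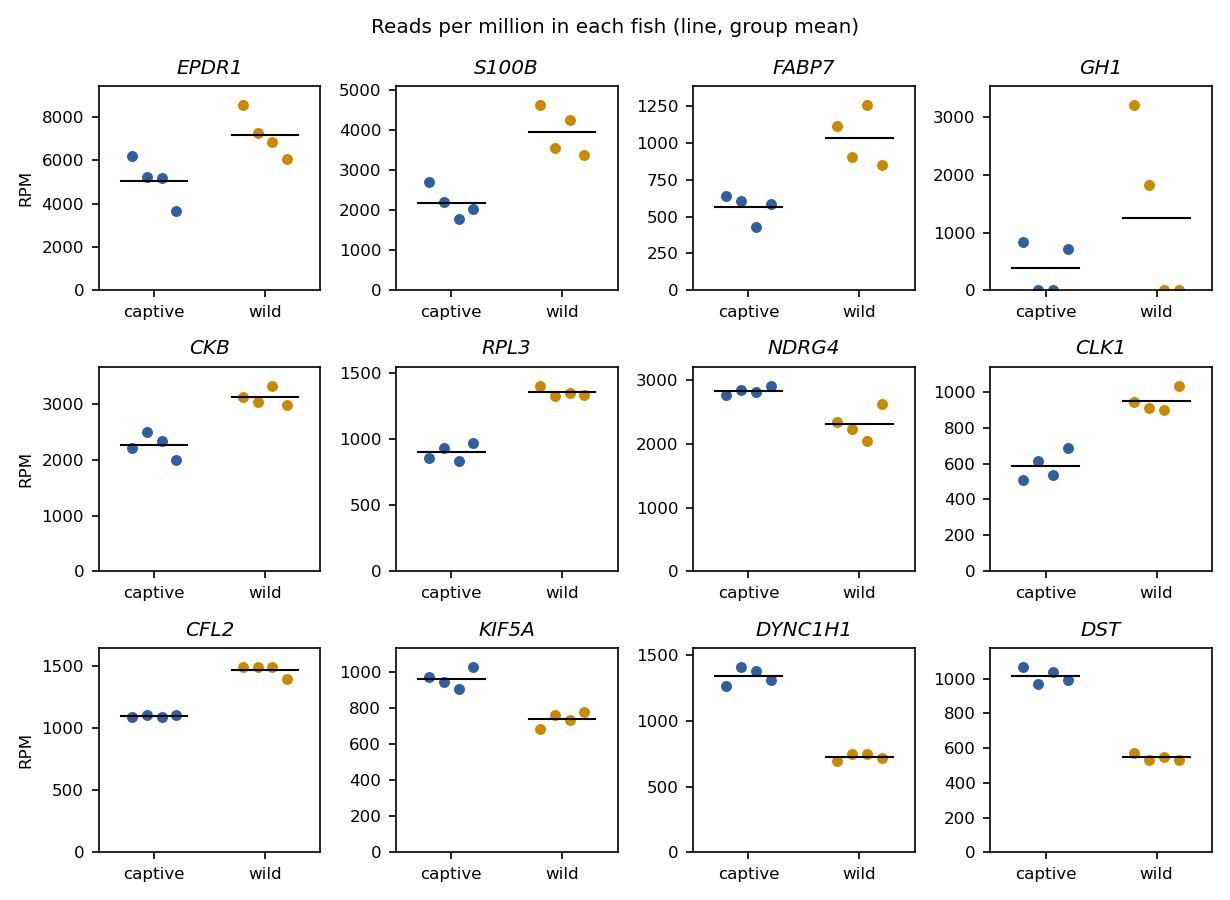
RPM (vertical, each axis starting at 0) of 12 members in each of the 4 captive (blue) and 4 wild (orange) fish, with lines at the group means. NDRG4, KIF5A, DYNC1H1 and DST are lower and S100B, FABP7, CKB, RPL3, CLK1 and CFL2 higher in every wild fish, EPDR1 overlaps, and GH1 is near 0 in 4 of the 8 fish.

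Of the 5 members of the release machinery of synapses 2 were higher in wild fish, 1 was lower and 2 did not pass. SYP, the vesicle protein synaptophysin, had 1049, 1133, 1137 and 1093 RPM in wild and 908, 929, 877 and 985 RPM in captive fish. The groups did not overlap, and this SYP gene was higher by 0.23 ± 0.05 (edgeR adjusted p = 0.0064). Another SYP gene, Nfu_g_1_001946, which is no member, went the other way without overlap (-0.20, edgeR adjusted p = 0.018). SNAP25, which takes part in membrane fusion at the synapse, had 1443 to 1572 RPM in wild and 1394 to 1729 RPM in captive fish and did not pass (-0.05 ± 0.07, edgeR adjusted p = 0.59). Another SNAP25 gene, Nfu_g_1_022084, which is no member, was higher (0.36, edgeR adjusted p = 0.0086). SCG2, a secretogranin of dense-core vesicles, did not pass either (-0.11 ± 0.10, edgeR adjusted p = 0.39). Outside the members 19 of 82 tested genes of this class were higher and 45 lower.

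The neuron marker list gave similar sums in both groups, 5000 to 5399 RPM in wild and 4938 to 5454 RPM in captive fish, over 11 genes of 8 symbols. The members SNAP25, SYP and ELAVL3 had the highest levels of the list. Of its genes 4 were higher and 4 lower, and the rises were 0.23 to 0.36 on the log2 scale. The falls were -1.19 in SYT1, -1.15 in NEFM, -0.95 in ELAVL4 and -0.20 in the SYP gene Nfu_g_1_001946. ELAVL3, an RNA-binding protein of neurons and a member, was at 820 to 896 RPM in wild and 795 to 936 RPM in captive fish (-0.06 ± 0.06, edgeR adjusted p = 0.50).

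Ion pumps and transmitter transporters were mostly lower in wild fish, with 4 of 6 members lower and 1 higher, and outside the members 121 of 203 tested genes of the class were lower and 29 higher. ATP2B3 and ATP2B2, calcium pumps of the plasma membrane, had 908 to 1066 and 849 to 877 RPM in wild fish against 1174 to 1258 and 1004 to 1171 RPM in captive fish. The log2 fold change was -0.35 ± 0.06 for ATP2B3 (edgeR adjusted p = 0.0016) and -0.37 ± 0.06 for ATP2B2 (edgeR adjusted p = 0.00099), without overlap in either.

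SLC6A11, the GABA transporter known from astrocytes in mammals, was lower by -0.22 ± 0.07 (edgeR adjusted p = 0.040), with overlapping groups. The member that was higher, GPM6B (0.21 ± 0.06, edgeR adjusted p = 0.016), fell into the class by its symbol and is a membrane glycoprotein, not a pump.

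The largest falls were in proteins of the cytoskeleton and of transport along it. DYNC1H1, the heavy chain of cytoplasmic dynein, which carries cargo back along axons, had 697, 747, 751 and 716 RPM in wild and 1270, 1415, 1379 and 1311 RPM in captive fish. The lowest captive fish was far above the highest wild fish, and the log2 fold change was -0.91 ± 0.05 (edgeR adjusted p = 1.1e-06). DST, dystonin, a very large protein that links actin, intermediate filaments and microtubules, had 571, 533, 547 and 535 RPM in wild and 1069, 970, 1041 and 990 RPM in captive fish. The groups were as clearly apart, with a log2 fold change of -0.93 ± 0.05 (edgeR adjusted p = 8.5e-07).

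KIF5A, a heavy chain of neuronal kinesin, which runs outward along axons, was at 684 to 775 RPM in wild and 902 to 1028 RPM in captive fish (-0.41 ± 0.06, edgeR adjusted p = 0.00047). CLSTN1, calsyntenin, a cargo adaptor of kinesin, was lower by -0.28 ± 0.05 (edgeR adjusted p = 0.0014). DPYSL3 and DPYSL5, which bind tubulin in growing axons, had 0.02 ± 0.05 and -0.08 ± 0.05 and did not pass (edgeR adjusted p = 0.79 and 0.28). CFL2, a cofilin, which severs actin filaments, went the other way, at 1398 to 1499 RPM in wild and 1092 to 1107 RPM in captive fish (0.39 ± 0.04, edgeR adjusted p = 5.0e-05).

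Among the remaining named members, RTN1, a reticulon that shapes the endoplasmic reticulum and was placed with the calcium and kinase genes by its symbol, was higher by 0.20 ± 0.06 (edgeR adjusted p = 0.018). CLK1, a kinase that phosphorylates splicing factors, had 941, 910, 898 and 1034 RPM in wild and 509, 616, 538 and 686 RPM in captive fish. No captive fish reached the wild range (0.66 ± 0.09, edgeR adjusted p = 0.00039).

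Of the 4 RNA-binding members only YBX1, a cold-shock domain protein, was called (0.17 ± 0.05, edgeR adjusted p = 0.020), and the joint share of the class was 0.408% in wild and 0.407% in captive fish. SF3B1, a subunit of the splicing particle U2, had -0.07 ± 0.06 (edgeR adjusted p = 0.35), and DDX5, an RNA helicase, -0.18 ± 0.09 (edgeR adjusted p = 0.13, 0.029 without captive fish MZM_0410_127). HSP90AB1, a constitutive chaperone, was lower by -0.19 ± 0.06 (edgeR adjusted p = 0.021). CPE, the carboxypeptidase that trims neuropeptide precursors, was higher by 0.19 ± 0.05 (edgeR adjusted p = 0.012), and PPT2-EGFL8, a name joined from a pair of neighbouring genes, by 0.37 ± 0.05 (edgeR adjusted p = 0.00030). NFIX, a transcription factor of the nuclear factor I family, had 0.11 ± 0.06 (edgeR adjusted p = 0.13), and AHSG, named for the plasma glycoprotein fetuin-A, -0.17 ± 0.10 (edgeR adjusted p = 0.22, 0.039 without wild fish 3).

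GH1, growth hormone, is a product of the pituitary and entered the list through some fish only. It had 3222, 1832, 0.688 and 0.417 RPM in wild and 837, 1.12, 0.723 and 722 RPM in captive fish. Thus 2 wild and 2 captive fish were high and the others were near 0, and the groups could not be separated (log2 fold change 1.65 ± 2.11, edgeR adjusted p = 0.56). GH1 was the only gene of the 7 pituitary markers that could be looked up, and whether the gland was included in the dissection of some brains was not tested. Without GH1 the members' share differed by 1.34 points between groups, again without overlap.

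Of the 30 members without a name 9 were higher, 3 were lower and 18 did not pass, which is 40% called. Over all genes tested, named or not, 41.6% passed, and among the other genes down to rank 1000, 61.0%. Names came in part from a list of genes that differ, and this bears on the comparison with the named members. Of these 53 of 70 were called (75.7%), against 65.9% of all named genes tested. For the members named through the condition-dependent table alone it was 25 of 26. Nfu_g_1_015310 had the largest rise among the called genes without a name, with 1340, 1285, 1244 and 1394 RPM in wild and 963, 892, 911 and 951 RPM in captive fish (0.47 ± 0.05, edgeR adjusted p = 6.9e-05). Nfu_g_1_015514 and Nfu_g_1_013746 were higher by 0.44 ± 0.09 and 0.41 ± 0.06 (edgeR adjusted p = 0.0036 and 0.00029). Nfu_g_1_022834 was lower, at 1103 to 1194 RPM in wild and 1246 to 1351 RPM in captive fish (-0.22 ± 0.04, edgeR adjusted p = 0.0037), and Nfu_g_1_001119 was lower by -0.23 ± 0.08 (edgeR adjusted p = 0.034).

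Among the 10 most abundant members are 5 without a name. Nfu_g_1_020367 varied widely in both groups, with 5187, 3306, 3486 and 4590 RPM in wild and 5128, 5572, 5133 and 3087 RPM in captive fish (-0.22 ± 0.19, edgeR adjusted p = 0.38). Nfu_g_1_021778, Nfu_g_1_016049 and Nfu_g_1_020449 had 0.04 ± 0.07, 0.16 ± 0.06 and -0.09 ± 0.08 (edgeR adjusted p = 0.68, 0.051 and 0.41). A pair of members varied together. Nfu_g_1_007614 had 1126, 803, 1122 and 1569 RPM in wild and 864, 1148, 608 and 804 RPM in captive fish, and Nfu_g_1_007730 had 1107, 823, 1118 and 1634 RPM and 843, 1130, 580 and 734 RPM in the same order. The same fish were highest and lowest in both genes, wild fish 11 and captive fish MZM_0410_125 being highest and wild fish 5 and captive fish MZM_0410_126 lowest, and neither gene passed (edgeR adjusted p = 0.17 and 0.12).

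The direction of change went with the length of the transcript, taken here as RPM divided by RPKM. Of the 27 members of 5000 bases or more, 4 were higher and 13 lower in wild fish, at a median of -0.21 on the log2 scale. Of the 20 members below 1000 bases 13 were higher and 1 lower, and of the 19 from 1000 to 2000 bases 15 were higher and none lower. Of the 34 in between, 17 were higher and 2 lower. Below 1000 bases the ribosomal protein genes made up most of the rises, and without them 3 of 9 members were higher and 1 lower. From 1000 to 2000 bases 9 of 13 were higher without them and none lower. Over all genes tested, 22.6% were higher and 13.7% lower below 1000 bases, and 20.7% and 20.8% from 1000 to 2000 bases. From 2000 to 5000 bases it was 23.4% and 17.3%, and at 5000 bases or more 10.2% and 37.1%. Over all genes the change was thus not graded with length, and only the longest bin leaned clearly to lower.

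Across the 100 members the rank correlation (Spearman) of length and log2 fold change was -0.52. It was -0.47 across the 80 without ribosomal protein genes and -0.14 across all genes tested. The correlation was not computed for the other genes down to rank 1000. Whether the closer tie to length is particular to the members was therefore not tested. Genes share the same 8 libraries and are not independent replicates, so these are descriptions. DYNC1H1 (16634 bases), DST (26901 bases), ATP2B3 (20460 bases) and ATP2B2 (12874 bases) are long, while FABP7 (399 bases) and 11 of the 20 ribosomal protein transcripts are below 1000 bases. Of the called falls, MBP (Nfu_g_1_012286, 393 bases) was the 1 below 1000 bases. The RNA integrity values in the study's sample sheet were lower in every wild than in every captive fish. Their part in the result was not tested, and they cannot be told apart from origin and storage.

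**Figure D4:**
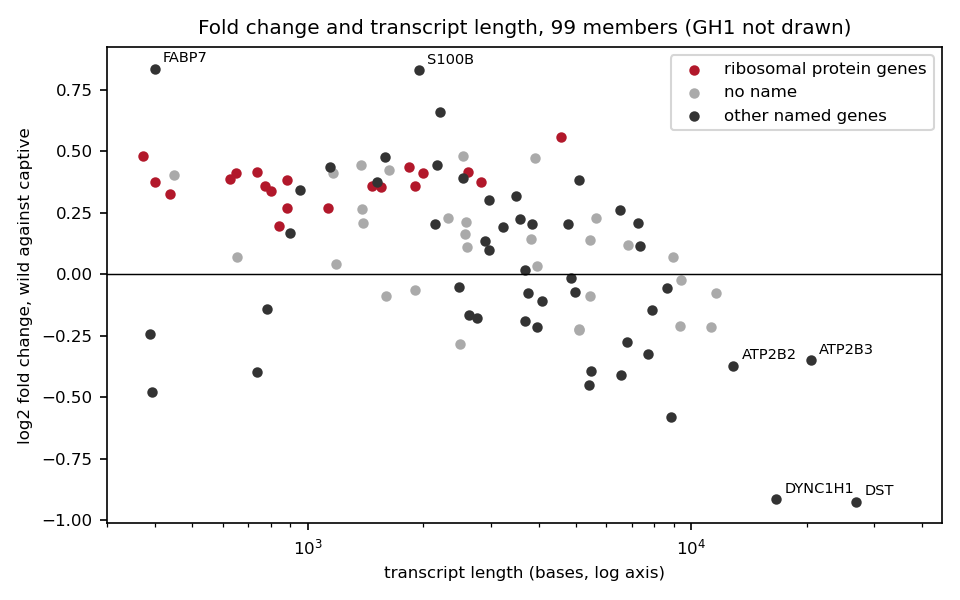
Log2 fold change of wild against captive fish (vertical) against transcript length in bases (horizontal, log axis) for 99 members, GH1 being left out. Ribosomal protein genes (red), 11 of them below 1000 bases, are all above 0, and DST (26901 bases) and DYNC1H1 (16634 bases) are lowest, at -0.93 and -0.91.

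The few markers of blood and muscle that could be looked up were low. Of the 7 erythrocyte symbols only ALAS2 and SLC4A1 had a gene here, with 3 genes, and no globin symbol did. The level of globin RNA is therefore not known. The 3 erythrocyte genes summed to 102.5 to 124.2 RPM in wild and 155 to 189 RPM in captive fish. SLC4A1 was lower in wild fish (log2 fold change -0.72, edgeR adjusted p = 2.9e-05). The ALAS2 genes went opposite ways, both with overlapping groups. Nfu_g_1_010282 was lower (-0.69, edgeR adjusted p = 0.027) and Nfu_g_1_019411 higher (0.67, edgeR adjusted p = 0.015). Of the 8 muscle symbols only TNNT3 had a gene, with 9.03 to 19.5 RPM in wild and 4.34 to 6.81 RPM in captive fish. The part of blood and muscle in the members' changes was not tested. No gene was found under the symbols of the microglia and eye lists.

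Most single calls did not hinge on 1 library. Leaving out each of the 8 libraries in turn, 51 of the 65 called members kept their call each time and 14 lost it at least once. Besides EPDR1 and SLC25A6, the lost calls of the genes described were GAPDHS (without wild fish 3, 7 or 11 or captive fish MZM_0410_125, MZM_0410_126 or MZM_0410_127, adjusted p up to 0.12) and EEF1G (without wild fish 3 or 7 or captive fish MZM_0410_124 or MZM_0410_126, up to 0.11). SLC6A11 (without wild fish 3, 5 or 11 or captive fish MZM_0410_124 or MZM_0410_125) reached 0.10, and Nfu_g_1_001119 (without wild fish 3, 5 or 11 or captive fish MZM_0410_124 or MZM_0410_126) 0.089. HSP90AB1 (without wild fish 5 or 7 or captive fish MZM_0410_125) reached 0.057, RTN1 (without wild fish 7 or captive fish MZM_0410_125) 0.058, YBX1 (without captive fish MZM_0410_124 or MZM_0410_126) 0.096 and GPM6B (without captive fish MZM_0410_124 or MZM_0410_126) 0.056. SLC25A6 reached 0.17 (lost without any library but wild fish 5). Conversely Nfu_g_1_016049 passed without wild fish 7 (0.038) and Nfu_g_1_007730 without captive fish MZM_0410_125 (0.039). All adjusted p-values here are from edgeR.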

How the data were processed

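RNA of 8 whole brains was sequenced as directional poly(A) libraries. By the submitters' notes and methods, bcl2fastq (version 2.20.0.422) made the read files and TopHat2 (version 2.1.0) aligned them against a hard-masked assembly, keeping at most 1 placement per read. The authors then summed reverse-strand reads over genes by featureCounts (version 1.6.5). The deposited table holds whole counts, which were tested as they are. RPM and RPKM were deposited by the authors too, and RPM equalled counts over column totals to within 5.0e-12. Near-identical gene copies are therefore uncertain. Replicate libraries differed by more than counting error, so none was counted as a duplicate.

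Genes with at least 1 count in all 8 libraries (19517) were tested with edgeR 4.0.16 (TMM, quasi-likelihood F-test, condition only, Benjamini-Hochberg, adjusted p under 0.05) in R 4.3.3. Standard errors were derived from the F statistic. DESeq2 1.42.0, limma 3.58.1 on log2(RPM + 0.5), other scalings and filters, other ways to choose members and leaving out each library were alternatives. The pipeline was tested on simulated data. Plots used matplotlib 3.10.9.

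Role classes were patterns over gene symbols, and symbols came from the study's supplementary tables. Where these gave a human gene name it was used, so that the label is that of the assigned human gene. Members, lists and markers were chosen with earlier results of these data known. Named genes are the 10 highest, the 10 largest called rises and falls, and the highest, best called and least changed of each class. GH1, MBP (Nfu_g_1_016795), Nfu_g_1_007614, Nfu_g_1_007730, SLC1A2, CFL2, HSP90AB1, SLC25A6, NFIX, RPS2, CPE, APOA1, AHSG, RTN1, DDX5, SCG2 and SLC6A11 were named after their values were seen. So were the SYP, SNAP25 and FABP7 genes that are no members, SYT1, ELAVL4, NEFM, GFAP, ALAS2 and SLC4A1. No sequence or genome position is given, since the gene identifiers had no match in the reference used here. Some members are not reported by name here.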

Additional observations from a re-analysis of the deposited data

Results flagged for a closer look

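In each group of 4 fish the highest and lowest value of each member was compared with the others by the gap to the nearest value as a share of the whole range (Dixon's criterion). This flagged 12 of 200 tests over the members, and chance flags about 1 in 20 groups. Among the genes described, captive fish MZM_0410_124 stood apart in SLC6A11 (1011 RPM, others 859 to 878) and HSP90AB1 (2339 RPM, others 2414 to 2429). Wild fish 3 stood apart in RPS25, a small subunit protein (968 RPM, others 853 to 859), and in Nfu_g_1_015514 (1012 RPM, others 838 to 864). Wild fish 7 had the highest GAPDHS (3260 RPM, others 2730 to 2810), wild fish 11 the lowest CFL2 (1398 RPM, others 1492 to 1499) and captive fish MZM_0410_126 the lowest Nfu_g_1_013746 (595 RPM, others 645 to 651).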

How the results depend on the processing

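No called member changed sign under any setting tried. The counts of members higher and lower were 46 to 56 and 11 to 18 with other scalings, filters, thinning, DESeq2 and limma-trend. All genes moved with these settings. Of all genes called, 44.1% (filterByExpr) to 57.1% (upper quartile factors) were higher in wild fish. The median over all genes tested rose by 0.057 with upper quartile factors, the setting with 56 members higher. Of the genes described, calls were lost with upper quartile factors for HSP90AB1 (adjusted p = 0.081), SLC6A11 (0.099) and Nfu_g_1_001119 (0.080), all 3 also with limma-trend (0.064, 0.060 and 0.071), and for SLC6A11 with library totals (0.057). SLC25A6 was lost with RLE factors (0.063), factors from other genes (0.063), no filter (0.062), filterByExpr (0.077) and thinning (0.056), and GAPDHS with no filter (0.053) and filterByExpr (0.059). Calls were gained with upper quartile factors for PABPC1 (0.039), RPS2 (0.027), NFIX (0.027) and Nfu_g_1_016049 (0.015), and with library totals and limma-trend for RPS2 (0.045 and 0.048) and Nfu_g_1_016049 (0.024 and 0.047). Adjusted p-values are edgeR's, or limma's for limma-trend. The median log2 fold change was 0.25 with upper quartile factors, 0.22 with library totals and 0.23 with limma-trend. Against a 1.5-fold change 0 members were higher and 2 lower (2% called, against 7.97% of all genes tested), and 0 ribosomal protein genes were higher. Without 1 library, 41 to 48 members were higher and 11 to 17 lower (54 to 65% called), the median was 0.15 to 0.19, 19 to 20 ribosomal protein genes were higher and 62 to 69 members did not overlap. Over all genes tested 6818 to 7809 were then called, against 8115 with every library, and 43.0 to 47.2% of the calls were higher. The wild share was then 14.9 to 15.2%, the captive share 13.4 to 13.8% and their difference 1.19 to 1.67 points.

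The share depended on the list. The difference was 0.823 points with members chosen by the captive mean. Chosen by RPKM, members held 11.8% in wild and 10.0% in captive fish, the first 50 held 10.4 and 9.44%, and the first 200 held 21.8 and 19.7%, a difference of 2.05 points. Settings added after seeing the data gave a wild share of 14.4% without EPDR1, and 12.7 and 11.8% without ribosomal protein genes, a difference of 0.845 points. The share of tubulins and microtubule proteins, a difference of -0.0836 points between wild and captive fish, was higher by 0.00274 points with the wild-mean list and by 0.0199 points with the RPKM list, which hold other genes of the class. No paired analysis was possible because no number in the labels pairs a wild with a captive fish.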
